A study of Mus musculus with 18 samples.

Results

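In C2C12 cells, a mouse myoblast line, 80 of 35275 genes in the deposited expression table were at least 1 lower on the log2(FPM + 1) scale in each of 2 MUNC-overexpressing lines than in control cells, both while the cells grew and after 3 days of differentiation. FPM is the number of reads of a gene scaled for library size, and a difference of 1 on this scale is a change by a factor of 2 for a gene well above 1 FPM. A gene also had to reach 0.5 FPM in at least 3 libraries, a filter that 13869 genes passed. Of the 88 genes that met the rule, 8 were left out by a pattern on their symbols, which removes several large gene families. They were Itgb7, Fgf10, Sema6d, Epha1, the neurofilament gene Nefm and the interferon-stimulated genes Ifi44, Oas3 and Oasl1. The same rule with "higher" in place of "lower" found 110 genes. The 4 comparisons of a MUNC line with control chose these genes, so every value that sets a MUNC line against control below is a description and carries no test.

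MUNC is a noncoding RNA made from a region upstream of Myod1, the gene of a master transcription factor of muscle. The study compared RNA of wild-type C2C12 cells with that of C2C12 cells overexpressing either the spliced form of MUNC (MS) or its unspliced genomic form (MG). Each was taken in growth medium (GM, with 20% serum) at about 80% of full density, and after 3 days in differentiation medium (DM3, with 2% serum), with 3 biological replicates in each of the 6 groups. The labels give the stock as negative for Pax7, a transcription factor of muscle stem cells. For all 18 samples the tissue label (myoblasts or myotubes) matched the medium in the title, but the source name of 9 samples gave the other cell state: all 3 of control DM3, 2 of MS GM, 2 of MG GM and 2 of MG DM3. The groups here follow the titles, so every comparison of media rests on them. The labels describe the control as wild-type cells and name no empty-vector line. No gene in the table carries a name of MUNC, so the level of MUNC itself was not analysed here, and it is not stated whether a line was 1 clone.

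Myoblasts divide in rich medium, and on serum withdrawal they leave the cell cycle, switch on myogenin and fuse into myotubes. The 80 genes have no single function. Those described here encode a drug efflux pump and its chromosomal neighbours (6 genes), secreted and matrix regulators with the enzymes that sulphate heparan sulphate (8), membrane receptors, adhesion molecules, channels and signalling proteins (16), nuclear and RNA-binding regulators (6), enzymes (15), proteins of the cytoskeleton, trafficking and lipid transfer (11), interferon-stimulated and immune genes (13), and 5 others. This grouping was made after the values had been seen.

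Depth was 38416702 to 68788327 reads per library, and 3 reads, the most that a count of 0 allows, were 0.0429 to 0.0757 FPM, for counting error only. The muscle identity of the libraries was mixed. Myf5, a transcription factor of committed myoblasts, was at 67.8, 81.5 and 66.0 FPM in control GM. Myod1 was at 0.0854, 0 and 0 FPM in control GM and 0.0768, 0 and 0.221 FPM in control DM3, so this defining myoblast gene was nearly absent from the control, whereas it was at 53.3, 16.4 and 16 FPM in MS and 18.1, 22.5 and 14.5 FPM in MG at DM3. Pax7 was at 0.147 FPM or less in every library. Myog, which encodes myogenin, was at 0.192, 0.434 and 0.405 FPM in control DM3, so this differentiation gene was also nearly absent from the control. The summed FPM of 13 muscle markers was 486 to 636 in control GM, 650 to 918 in MS GM and 814 to 1114 in MG GM. In DM3 the sums were 794 to 1124 in control, 981 to 2105 in MS and 1902 to 2006 in MG. In MG GM these markers did not move together. Des was at a mean of 476 FPM against 24.2 FPM in control GM, and Chrna1 at 37.5 against 14.9 FPM. Myf5 (26.7 against 71.8 FPM) and Cdh15 (22.9 against 46.3 FPM) were lower than in control.

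Among markers of other cell types, the 11 genes of the neuron list did not move together. They summed to 333 to 635 FPM in control GM, 31.3 to 93.3 in MS GM and 195 to 259 in MG GM. The neurofilament genes Nefl and Nefm, at means of 265 and 161 FPM in control GM, were at 2.45 and 0.112 FPM in MS GM and 112 and 5.73 FPM in MG GM. Stmn2 went the other way in MG, at a mean of 92.3 FPM in GM against 1.06 FPM in control, as did Map2 at 1.37 against 0.0059 FPM. Tubb3 was at a mean of 58.3 FPM in MS GM against 37.4 FPM in control, with overlapping libraries, and made up most of the MS sum. Elavl4 had no reads in any library. Nefm met the rule but was left out of the set by its symbol. In DM3 the sums were 21.9 to 27.1 FPM in control, 6.94 to 19.1 in MS and 59.2 to 85.2 in MG. The macrophage and leukocyte list (6 genes in the table) summed to at most 5.53 FPM in any library, nearly all of it Cd68, with C1qa at 0 reads throughout. The part of these markers in the drops below was not tested, and in bulk RNA fewer cells of a type and less RNA per cell cannot be told apart.

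Across the 80 genes the median difference from control was -1.72 for MS and -1.90 for MG in GM, and -2.12 for MS and -2.34 for MG in DM3, on the log2(FPM + 1) scale. Over all 13869 genes past the filter the medians were -0.02, -0.03, 0.01 and -0.01. As a share of the control mean in FPM, the median gene was at 15.3% in MS and 14.6% in MG in GM, and at 11.6% and 8.22% in DM3. All 3 MS libraries lay below all 3 control libraries for 75 of the 80 genes in GM, beside 21.7% of all tested genes, and for 80 of 80 in DM3, beside 26.1%. All 3 MG libraries lay below control for 77 genes in GM, beside 21% of all tested genes, and for 80 in DM3, beside 29.1%. The rule fixed these directions, so nothing is read from the counts.

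The depth of the drop varied widely among the genes. Taking for each gene the smallest of its 4 drops, 5 genes fell short of control by 3 or more on the log2 scale in all 4 comparisons, 20 by 2 or more, and 46 by less than 1.5. At the threshold itself the genes just inside were Gng8 (1.004), Zfp850 (1.004) and Ptgs1 (1.007), and those just outside were Zfp583 (0.998), Alox5ap (0.988) and Casp1 (0.981). The 7 genes in which at least 1 MUNC library overlapped control did so only in GM: Trim30a, Irf7, Zbp1, Phf11d, Plekhb1, Chrnd and Mtm1. At the other end, 7 genes had at most 10 reads in every one of the 12 MUNC libraries, and 19 averaged under 1 FPM in all 4 MUNC groups.

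**Figure D1:**
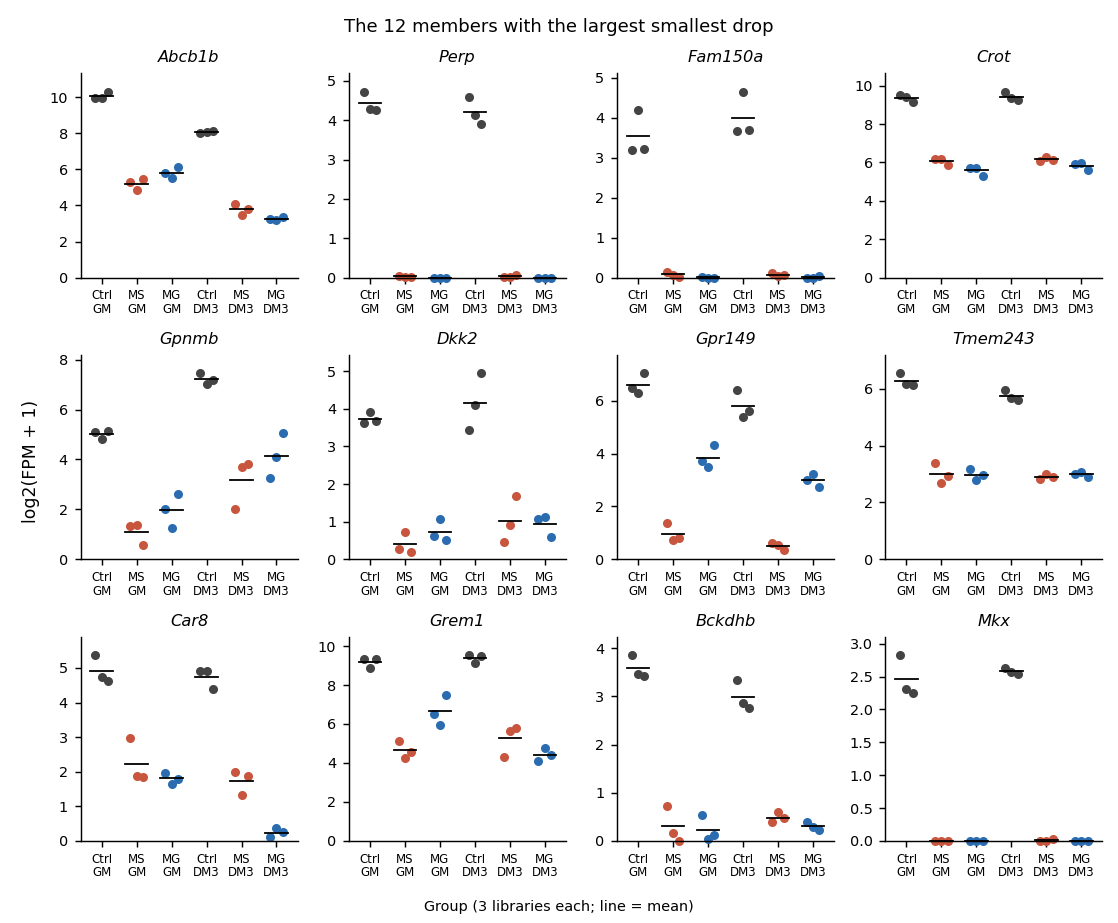
Level of the 12 genes with the deepest consistent drop. Each point is a library, on the log2(FPM + 1) scale, in control (grey), MS (red) and MG (blue) cells in GM and DM3, and each line is the mean of 3 libraries. Every MUNC library lies below every control library in the same medium, and Perp and Mkx sit at or near 0 in all 12 MUNC libraries.

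The gene with the deepest drop in all 4 comparisons, of at least 4.24, lies in a stretch of chromosome 5 with other genes of the set. Abcb1b encodes P-glycoprotein, the pump that exports many drugs from cells. It was at 978, 982 and 1261 FPM in control GM, 38.1, 28.5 and 42.8 FPM in MS GM and 55.3, 44.4 and 69.4 FPM in MG GM. In DM3 it was at 261, 265 and 282 FPM in control, 15.8, 10.2 and 13.1 FPM in MS and 8.63, 8.09 and 9.37 FPM in MG. The MUNC means were 3.23% to 5.25% of the control mean in the same medium. Its closest relative, Abcb1a, which encodes a second form of the pump, was at 23, 10.5 and 10.6 FPM in control GM, 0.0252, 0.183 and 0 FPM in MS GM and 0.329, 1.20 and 0.924 FPM in MG GM. Its MUNC means were 0.472% to 5.55% of control. Reads of such near-identical genes can be split between them by the counting, so the separate values of the pair are uncertain.

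Further along lies Crot, which encodes the peroxisomal transferase that couples medium-chain fatty acids to carnitine. It was at 737, 673 and 561 FPM in control GM, 72.3, 70.7 and 56.6 FPM in MS GM and 51.6, 51.8 and 38.9 FPM in MG GM, and at 10.3% and 8.12% of control in DM3 for MS and MG. Tmem243, a transmembrane protein gene, was at 92.3, 70.6 and 70.0 FPM in control GM, 9.57, 5.46 and 6.73 FPM in MS GM and 7.96, 5.99 and 6.74 FPM in MG GM. Dmtf1, a Myb-like transcription factor that activates the Arf tumour suppressor, was less far below control, at 35.1% and 29.3% of control in GM and 26.9% and 24.4% in DM3. Tmem243 and Dmtf1 overlap on opposite strands, so without strand their reads cannot be told apart. The sixth gene, 9330182L06Rik, was at 2.05, 4.07 and 1.06 FPM in control GM and at no more than 0.137 FPM in any MUNC library.

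These 6 genes lie between 8660077 and 9481825 on chromosome 5 of GRCm38, a stretch of 822 kb. GENCODE M21 annotates 7 protein-coding genes there. The 6 that passed the filter on low values were all among the 80, and the other one, Abcb4, did not pass it. The stretch held 3 other tested genes. The antisense transcript Gm5106 differed from control by -1.17 in MS and -1.25 in MG in GM, and by -0.47 and -0.51 in DM3. The processed pseudogenes Gm15610 and Gm7332 differed from control by -0.19 to 0.20. On the side before Abcb1a the differences were uneven. Adam22 differed from control by 0.18, -2.24, -1.09 and -2.93 in MS GM, MG GM, MS DM3 and MG DM3. Steap4, whose control mean was 0.211 FPM in GM and 3.44 FPM after differentiation, differed by -0.25, -0.26, -2.11 and -2.11. Slc25a40, 237 kb before the Abcb1a start, differed from control by -0.93, -1.20, -0.20 and -1.25, in the same order, and its neighbour Dbf4 by -1.19, -1.19, -0.53 and -2.0. Sri differed by -0.51, -0.78, -0.18 and -1.05, and the antisense transcript Gm15731 by -0.36, -0.42, 0.008 and -0.16. No other gene within 1 Mb of the stretch on its far side passed the filter.

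**Figure D2:**
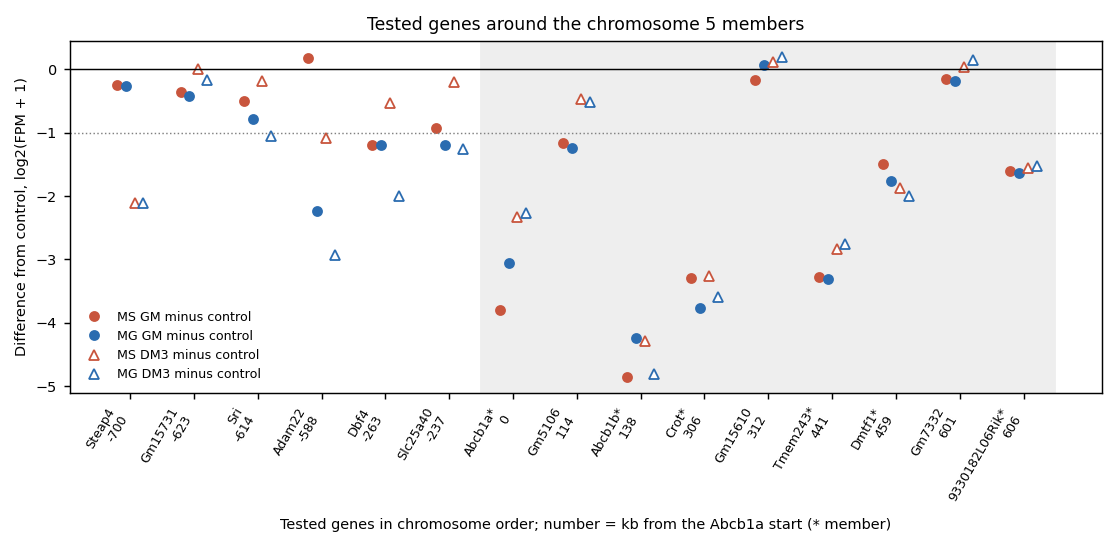
Difference of each MUNC line from control, as the mean log2(FPM + 1) of the line minus that of control in the same medium, for the 15 tested genes in and within 1 Mb of the chromosome 5 stretch (shaded). Genes stand in chromosome order at equal spacing with their distance from the start of Abcb1a in kb, asterisks mark the 6 genes of the set, and the dotted line is the threshold of -1. The 6 marked genes lie between -1.50 and -4.85, and the 2 pseudogenes among them lie near 0.

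Other neighbours were fewer. N4bp3 and D930048N14Rik are 111 bases apart on chromosome 11 and were both at or under 13.3% of control in every MUNC group. Hs3st3a1 and Hs3st3b1 also share chromosome 11, Ctla2a and Ctla2b chromosome 13, and Sh3bgrl2 and Bckdhb chromosome 9. In all, 14 of the 80 genes had another gene of the set within 5 tested genes. Reads of genes that overlap another tested gene, such as Irf7 with Phrf1, Ampd3 with Rnf141 or Kcnh1 with Hhat, cannot be told from those of the partner where strand was not used in counting. The 80 genes lay on 18 chromosomes, and 77 of them were protein coding.

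Among the secreted regulators, Grem1 encodes gremlin, an antagonist that binds bone morphogenetic proteins. It was at 647, 474 and 651 FPM in control GM, 33.8, 18.1 and 22.8 FPM in MS GM and 90.8, 61.2 and 181 FPM in MG GM, and at 19.0, 49.8 and 55.2 FPM in MS DM3 and 16.2, 26.3 and 20.4 FPM in MG DM3 against 739, 563 and 719 FPM in control DM3. The MG libraries in GM were the highest of the MUNC libraries and still below every control library. Dkk2, a secreted modulator of the Wnt coreceptors, was at 11.2, 14.1 and 11.7 FPM in control GM and at 2.71% and 5.60% of that in MS and MG. Fam150a encodes a secreted ligand of the receptor tyrosine kinases ALK and LTK. It was at 8.14, 17.3 and 8.33 FPM in control GM and at 4 reads or fewer in every MUNC library. Thbs2, which encodes a thrombospondin of the matrix, was at 114, 65.4 and 106 FPM in MS GM and 187, 187 and 217 FPM in MG GM against 432, 488 and 574 FPM in control GM.

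The enzymes that place sulphate groups on heparan sulphate chains, which bind growth factors, were represented by 3 genes. Ndst4, which adds N-sulphate, was at 39.3% of control in MS and 4.08% in MG in GM, and at 14.5% and 4.06% in DM3. The 3-O-sulphotransferase genes Hs3st3a1 and Hs3st3b1, which are close relatives whose reads may be split, were at 42.3% and 9.65% in MS GM and at 38.6% and 27.4% in MG GM. Cpa6, a secreted carboxypeptidase, was low even in control at 1.45, 1.27 and 0.876 FPM in GM.

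Of the membrane proteins, Perp encodes a tetraspan protein of desmosomes that p53 can switch on. Perp was at 25.4, 18.5 and 18.2 FPM in control GM and 22.9, 16.7 and 14 FPM in control DM3. It had at most 3 reads in any MS library and none in any MG library, so control was at least 397-fold higher than MG in GM and 328-fold higher in DM3, with 3 reads per MG library taken as the limit. Gpnmb, a transmembrane glycoprotein of pigment and phagocytic cells, was at 33.7, 27.0 and 34.1 FPM in control GM, 1.54, 1.59 and 0.469 FPM in MS GM and 3.09, 1.38 and 5.15 FPM in MG GM. L1cam encodes an adhesion molecule of growing axons. L1cam was at 103, 197 and 194 FPM in control GM, 3.21, 1.89 and 3.63 FPM in MS GM and 30.1, 35.0 and 37.6 FPM in MG GM, so the MS libraries were far below the MG libraries and both below control. Cdh22, a cadherin, was at 0.888, 2.23 and 1.55 FPM in control GM and at 15 reads or fewer in every MUNC library.

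Of 90 tested G protein-coupled receptors, 3 were in the set. The orphan receptor gene Gpr149 was at 88.3, 77.4 and 130.5 FPM in control GM, 1.59, 0.660 and 0.739 FPM in MS GM and 12.2, 10.2 and 19.2 FPM in MG GM. Htr1b, a serotonin receptor gene, was at 17.8% of control in MS and 8.97% in MG in GM. Bdkrb2, a bradykinin receptor gene, was at 15.1% and 3.45% in GM and at 1.66% and 0.770% in DM3. The potassium channel gene Kcnh1 was at 15 reads or fewer in every MUNC library, against 3.04, 3.40 and 7.18 FPM in control GM. Chrnd, which encodes the delta subunit of the muscle acetylcholine receptor, was at 12.5, 21.5 and 9.08 FPM in control GM and 3.33, 12.3 and 5.16 FPM in MS GM, where replicate 2 of MS overlapped control. The monocarboxylate transporter gene Slc16a11 was at 21.4% of control in MS and 7.36% in MG in GM. The other 6 genes of this group were Tmem158, Prrg4, Styk1, the G protein subunit gene Gng8, the adaptor gene Shc2 and Spry4, a feedback inhibitor of receptor tyrosine kinase signalling. They were at 7.93% to 45.9% of control over the 4 comparisons.

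Among nuclear regulators, Mkx encodes a homeobox transcription factor of tendon. Mkx was at 6.09, 3.95 and 3.76 FPM in control GM and 5.17, 4.93 and 4.84 FPM in control DM3, and a single read in 1 of the 12 MUNC libraries was all that was counted for it there. Control GM was at least 74.7-fold higher than MS and 88.2-fold higher than MG, and control DM3 at least 91.6-fold higher than MG. Elavl2, an RNA-binding protein gene best known from neurons, was at 4.18, 3.56 and 2.60 FPM in control GM and at 5 reads or fewer in every MUNC library. Sox13 was at 0.633% of control in MS and 2.35% in MG in GM. The zinc finger gene Zfp422, at 17.9, 21 and 19.0 FPM in control GM, was at 10.5% and 20.0%. Irx2, a homeobox gene, was at 26.0% and 26.2%, and Zfp850 at 29.5% and 21.2%.

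The enzymes came from separate pathways. Bckdhb, a subunit of the mitochondrial complex that breaks down branched-chain amino acids, was at 13.5, 10.1 and 9.70 FPM in control GM, 0.656, 0.128 and 0 FPM in MS GM and 0.458, 0.0338 and 0.0840 FPM in MG GM. Car8, a carbonic anhydrase relative without that activity, was at 40.4, 25.8 and 23.6 FPM in control GM, 6.94, 2.64 and 2.62 FPM in MS GM and 2.93, 2.16 and 2.46 FPM in MG GM, and at 0.720% of control in MG DM3. Ass1, which makes argininosuccinate on the way to arginine, was at 149.6, 107 and 175 FPM in control GM, 42.6, 11.1 and 15.9 FPM in MS GM and 45.3, 42.5 and 50.2 FPM in MG GM. The other 12 enzyme genes included Ptgs1, which encodes a cyclooxygenase of prostaglandin synthesis, Ero1l, an oxidase of disulphide formation in the endoplasmic reticulum, Manba, a lysosomal mannosidase, and Eno2, an enolase. In GM they were at 0.742% (P4htm in MG) to 49.0% (Ptgs1 in MG) of control.

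Among genes of the cytoskeleton, trafficking and lipid transfer, Rab29 encodes a small GTPase of the Golgi and endolysosomes. Rab29 was at 3.45, 2.81 and 2.95 FPM in control GM and 3.00, 3.04 and 3.09 FPM in control DM3, and had no read in any of the 12 MUNC libraries. It was the only gene of the set with 0 reads in all of them, and control was at least 49.8-fold to 58.8-fold higher in the 4 comparisons. Mtm1, the phosphoinositide phosphatase gene mutated in X-linked myotubular myopathy, was at 11.1, 23.3 and 6.65 FPM in control GM and 5.83, 6.73 and 4.2 FPM in MS GM, which overlap, but at 0.0573, 0.0169 and 0 FPM in MG GM. Dock11, which encodes an activator of the GTPase Cdc42, was at 46.9% of control in MS and 14.9% in MG in GM. Cnn1, a calponin of smooth muscle and the only gene of the set on a marker list, was at 10.8% and 37.8%. The 5 smooth muscle markers, Cnn1 among them, were not lower as a sum. They summed to 1271 to 2141 FPM in control GM, 1839 to 2616 in MS GM and 2423 to 2701 in MG GM. In DM3 the sums were 1286 to 1437 FPM in control, 1948 to 3302 in MS and 3095 to 4658 in MG. The other 7 genes of the cytoskeleton, trafficking and lipid transfer group, Kif5a, Plekhb1, Osbpl6, Iqcg, N4bp3, Sh3bgrl2 and Tpd52l1, were at 0.91% to 42.2% of control over the 4 comparisons. The last 5 genes of the set were Ankrd34a, Fam131b, D930048N14Rik and the noncoding RNA genes 4930461G14Rik and 2410006H16Rik, at 0.589% to 45.7%.

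Differentiation was compared within each line, a comparison the rule did not use. In control cells 58 of the 80 genes (72.5%) changed between GM and DM3 (36 higher and 22 lower in DM3), at a limma Benjamini-Hochberg adjusted p under 0.05 over all tested genes. Of all tested genes 58.2% changed, 29.6% higher and 28.6% lower. In MS cells 34 changed (21 higher and 13 lower), beside 35.6% of all tested genes, of which 17.2% were higher and 18.4% lower. In MG cells 42 changed (21 higher and 21 lower), beside 51.4%, of which 26.3% were higher and 25.1% lower. For MS and MG the share of the set, 42.5% and 52.5%, was close to the background. The rule did choose the levels, however, since it asks for more in control than in both MUNC lines in both media. Of the 80 genes, 19 averaged under 1 FPM in every MUNC group, where the scale understates changes. The share of the set called in a line is thus not independent of the rule, and nothing is read from it beside the background. Without the 13 interferon-stimulated and immune genes, 46, 23 and 35 of 67 genes changed in control, MS and MG. In the authors' deposited table on control cells, 35 of the 80 genes were higher and 21 lower in DM3 at the same threshold.

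**Figure D3:**
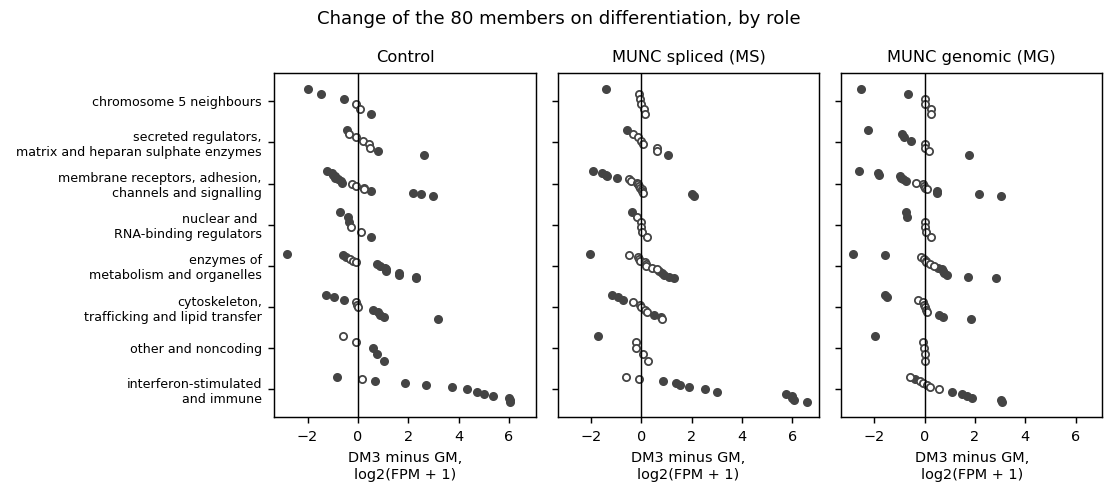
Change of each of the 80 genes from GM to DM3 in control, MS and MG cells, as the difference of mean log2(FPM + 1), with genes grouped by role. Filled points passed limma's test (adjusted p under 0.05) and open points did not. The interferon-stimulated and immune genes reach 6.05 in control and 6.60 in MS but 3.08 in MG, while the chromosome 5 genes lie at or below 0.51 in all 3.

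Of the 6 chromosome 5 genes, 3 fell in control cells from GM to DM3, beside 28.6% of all tested genes, and 1 rose, beside 29.6%. The other 2 did not pass the test, and nothing is read from counts of so few genes. Abcb1b fell in control (-1.98 ± 0.18 (SE), limma adjusted p = 3.34e-07), in MS (-1.42 ± 0.18 (SE), limma adjusted p = 2.85e-05) and in MG (-2.54 ± 0.18 (SE), limma adjusted p = 8.9e-08). Its DM3 libraries lay below its GM libraries in every line. Abcb1a went to 6.78, 3.22 and 3.83 FPM in control DM3 (-1.45 ± 0.26 (SE), limma adjusted p = 0.000197). Tmem243 fell in control (-0.53 ± 0.17 (SE), limma adjusted p = 0.0125), a call lost without control GM replicate 1 (limma adjusted p = 0.0710) or control DM3 replicate 3 (0.0536). Dmtf1 rose in control (0.51 ± 0.15 (SE), limma adjusted p = 0.0079), with its lowest DM3 library under its highest GM library. Crot was at 819, 653 and 602 FPM in control DM3 (0.07 ± 0.15 (SE), limma adjusted p = 0.717). Of 312 tested membrane transporters and pumps, including both Abcb1 genes and Slc16a11, 84 rose and 92 fell in control, beside 29.6% and 28.6% of all tested genes.

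Outside that stretch, the deepest fall on differentiation was that of Ass1. Ass1 went to 32.1, 15.2 and 14.7 FPM in control DM3 (-2.80 ± 0.40 (SE), limma adjusted p = 2.13e-05). It also fell in MS (-2.04 ± 0.40 (SE), limma adjusted p = 0.00101) and in MG (-2.85 ± 0.40 (SE), limma adjusted p = 2.67e-05), with no overlap between media in any line. Styk1, which encodes a kinase-like membrane protein, fell in control (-0.92 ± 0.26 (SE), limma adjusted p = 0.00676), MS (-1.93 ± 0.26 (SE), limma adjusted p = 5.9e-05) and MG (-2.61 ± 0.26 (SE), limma adjusted p = 1.62e-06). The long noncoding RNA gene 4930461G14Rik fell in MS (-1.72 ± 0.29 (SE), limma adjusted p = 0.00033) and MG (-1.98 ± 0.29 (SE), limma adjusted p = 3.91e-05), and its change in control was -0.58 (limma adjusted p = 0.0983, and 0.0435 with replicate number as a block, which makes the change a call). Whether these falls differ between control and a MUNC line was not tested, since such a difference rests on the comparisons that chose the genes.

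A few genes outside the immune group rose on differentiation in all 3 lines. Chrnd, the muscle receptor subunit, went to 74.7, 128 and 153 FPM in control DM3 (2.98 ± 0.47 (SE), limma adjusted p = 5.35e-05), 58.7, 19.3 and 19.1 FPM in MS (2.03 ± 0.47 (SE), limma adjusted p = 0.00334) and 28.5, 45.0 and 33.9 FPM in MG (3.03 ± 0.47 (SE), limma adjusted p = 6.36e-05). Gpnmb went to 173, 129 and 145 FPM in control DM3 (2.20 ± 0.47 (SE), limma adjusted p = 0.000826), and also rose in MS (2.09 ± 0.47 (SE), limma adjusted p = 0.00282) and MG (2.17 ± 0.47 (SE), limma adjusted p = 0.00114). Eno2 rose in control by 2.29, in MS by 1.30 and in MG by 1.72. Ndst4 rose in control by 2.61, in MG by 1.75 and in MS by 1.05, the last a call lost without MS GM replicate 1, MS GM replicate 3 or MS DM3 replicate 2 (limma adjusted p = 0.0608, 0.0967 and 0.107). Unlike these genes, Bdkrb2 is given for its rise in control, from 2.46, 5.47 and 3.72 to 15.6, 27.9 and 40.3 FPM (2.52 ± 0.26 (SE), limma adjusted p = 1.13e-06). It was at 0.898 FPM or less in every MUNC library of either medium. Of the 90 tested G protein-coupled receptors, 27 rose and 18 fell in control, beside 29.6% and 28.6% of all tested genes.

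Interferons are secreted alarm proteins, and the genes they induce block virus entry, copying and release and sense foreign nucleic acid. A common binding site for the factors they activate, in the promoters of such genes, is the interferon-stimulated response element, whose core repeats GAAA. The set held 8 genes of this kind: Irf7, which encodes a transcription factor that amplifies interferon production, Zbp1, a sensor of left-handed nucleic acid, Bst2, which encodes tetherin, Rsad2, which encodes viperin, Trim30a, Phf11d, Slfn2 and the chemokine gene Ccl5. The other 5 were the immune receptor genes Siglecg and Cd200r2, the lectin-related Clec2f, which GENCODE annotates as a transcribed pseudogene, and the protease inhibitor genes Ctla2a and Ctla2b. Ifi44, Oas3 and Oasl1 also met the rule but were left out by their symbols, so these counts depend on that pattern.

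RefSeq (GRCm38.p6) promoters, from 250 bases before to 50 after a start, were matched for 63 of the 80 genes, 80 promoters in all. GAAA, any 2 bases and GAAA again, on either strand, stood in 4 of them (5%), in 3.44% of all 32851 promoters and in 3.03% of those of tested genes. All 4 belonged to 3 interferon-stimulated genes, Bst2, Rsad2 and Trim30a (with 2 promoters), among 13 promoters of the interferon-stimulated and immune genes, and none to the 67 promoters of the others. Promoters of these genes were also poor in CG pairs, with a median of 3 in 300 bases against 18 for the others of the set and 20 for all tested genes. A match is a description of the letters and not a site shown to bind. The 250 bases before the start of each of the 3 genes are shown because they carry the repeat, written 5′ to 3′ on the minus strand, where all 3 genes lie, with each match in capitals (overlapping matches run together). They are chr8:71537473-71537722 for Bst2, chr12:26456453-26456702 for Rsad2 and chr7:104465194-104465443 for Trim30a, on GRCm38.
Bst2: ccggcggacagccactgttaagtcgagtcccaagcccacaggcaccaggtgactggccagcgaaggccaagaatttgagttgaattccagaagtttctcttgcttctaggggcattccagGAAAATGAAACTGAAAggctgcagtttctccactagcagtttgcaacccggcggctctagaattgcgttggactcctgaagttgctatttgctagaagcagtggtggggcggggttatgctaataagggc
Rsad2: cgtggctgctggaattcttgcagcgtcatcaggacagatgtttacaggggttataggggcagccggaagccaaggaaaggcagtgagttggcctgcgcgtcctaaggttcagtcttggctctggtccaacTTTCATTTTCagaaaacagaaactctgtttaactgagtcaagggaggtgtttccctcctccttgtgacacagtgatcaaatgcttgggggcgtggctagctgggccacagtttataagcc
Trim30a: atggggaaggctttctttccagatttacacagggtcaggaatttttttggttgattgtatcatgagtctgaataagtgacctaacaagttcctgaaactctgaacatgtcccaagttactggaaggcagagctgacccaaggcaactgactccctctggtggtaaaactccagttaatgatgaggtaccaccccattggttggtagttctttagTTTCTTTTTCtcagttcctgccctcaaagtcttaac
In Bst2 the repeat appeared as 2 overlapping matches, with first bases 130 and 124 bases before the start. In Rsad2 and Trim30a it stood on the opposite strand, so that its reverse complement is in capitals, with first bases 120 and 36 bases before the start. Of the other motifs counted, CANNTG (the E-box, which MyoD-type factors bind) stood in 67.5% of the set's promoters against 72.3% of all and 63.7% of those of tested genes. CAGCTG, a form within CANNTG, stood in 10% against 16.3% of all and 15.8% of those of tested genes, and GGAATG in 10% against 14.7% and 12.4%. TGANTCA, the letters of an AP-1 site, stood in 9 of the 80 promoters (11.2%) against 7.81% of all and 5.32% of those of tested genes. Of these 9, 5 were among the 13 promoters of the interferon-stimulated and immune genes and 4 among the other 67.

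In control cells, 11 of the 13 genes rose from GM to DM3, beside 29.6% of all tested genes. Of the 13, 1, Siglecg, fell (-0.84 ± 0.34 (SE), limma adjusted p = 0.0418), beside 28.6%. The call of Siglecg was lost without control GM replicate 2 or 3 or control DM3 replicate 1 or 2 (limma adjusted p = 0.0642 to 0.195). It was also lost with a pseudocount of 0.1, no filter on low values, only the groups compared or quantile normalization. With a pseudocount of 0.1, quantile normalization or edgeR, 10 of the 13 rose. Zbp1 went from 1.62, 13.5 and 1.67 FPM in GM to 323, 332 and 273 FPM in DM3 (6.05 ± 0.58 (SE), limma adjusted p = 5.9e-07). Irf7 went from 4.27, 28.3 and 3.40 to 626, 583 and 510.3 FPM (6.02 ± 0.54 (SE), limma adjusted p = 3.52e-07). Phf11d went from 1.74, 12.4 and 1.18 to 344, 292 and 213 FPM (6.02 ± 0.51 (SE), limma adjusted p = 2.29e-07). In each of these 3 genes replicate 2 stood far above the other control GM libraries and every DM3 library was far above it. Bst2 went from 27.9, 54.0 and 24.4 to 1383, 1502 and 1331 FPM (5.35 ± 0.27 (SE), limma adjusted p = 2.14e-09). The chemokine gene Ccl5 went from 5.16, 8.71 and 7.99 to 312, 273 and 199.7 FPM (4.99 ± 0.31 (SE), limma adjusted p = 1.29e-08). Trim30a (4.75), Rsad2 (4.34), Slfn2 (3.72), Cd200r2 (2.71), and Ctla2a (1.88) also rose, as did Ctla2b by 0.66, a call lost with edgeR on the recovered reads (adjusted p = 0.0603).

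In MS cells 11 of the 13 also rose, beside 17.2% of all tested genes, and none fell, with Siglecg and Clec2f not passing the test. Bst2 went from 4.14, 7.13 and 4.91 FPM in MS GM to 429, 782 and 660.5 FPM in MS DM3 (6.60 ± 0.27 (SE), limma adjusted p = 2.88e-10). Zbp1 went from 0.252, 4.12 and 0.289 to 80.9, 207 and 149.7 FPM (6.08 ± 0.58 (SE), limma adjusted p = 1.64e-06), and Phf11d from 0.303, 2.55 and 0.523 to 97.2, 168 and 113 FPM (6.01 ± 0.51 (SE), limma adjusted p = 5.82e-07). Irf7 rose by 5.99 and Trim30a by 5.76. In MG cells 6 rose, beside 26.3% of all tested genes, and 1, Clec2f, fell, beside 25.1%. Without MG DM3 replicate 3, Irf7 and Phf11d no longer passed there (limma adjusted p = 0.0542 and 0.0646), nor did Ccl5 without MG DM3 replicate 1 (0.0579) or Clec2f and Phf11d without MG GM replicate 3 (0.0589 and 0.0769). Zbp1 rose from 0.186, 0.709 and 0.273 to 11.2, 9.87 and 10.7 FPM (3.08 ± 0.58 (SE), limma adjusted p = 0.000344) and Cd200r2 from 1.36, 0.945 and 0.441 to 15.0, 19.3 and 10.4 FPM (3.04 ± 0.33 (SE), limma adjusted p = 2.95e-06). Trim30a, at 5.60, 2.65 and 0.357 FPM in MG GM and 6.15, 2.85 and 2.85 FPM in MG DM3, did not pass the test (0.57 ± 0.63 (SE), limma adjusted p = 0.481), nor did Rsad2 (0.22 ± 0.48 (SE), limma adjusted p = 0.734).

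At DM3 the order was control, MS and MG for 10 of the 13 genes, and the MS and MG libraries did not overlap for any of the 13 (10 with MS higher, beside 29.9% of all tested genes, and 3 with MS lower, beside 27.3%). Irf7 was at 115, 222 and 193 FPM in MS and 4.55, 4.91 and 6.79 FPM in MG (4.75 ± 0.54 (SE), limma adjusted p = 2.41e-06, MS minus MG). Bst2 differed by 4.49 ± 0.27 (SE), limma adjusted p = 1.32e-09, Phf11d by 4.36 ± 0.51 (SE), limma adjusted p = 3.3e-06 and Trim30a by 3.95 ± 0.63 (SE), limma adjusted p = 8.79e-05. Cd200r2 had the opposite order, with MS below MG (-1.58 ± 0.33 (SE), limma adjusted p = 0.000974). So had Siglecg (-0.92 ± 0.34 (SE), limma adjusted p = 0.0369), a call lost without MS DM3 replicate 1 or 2 or MG DM3 replicate 1 or 3 (limma adjusted p = 0.0564 to 0.144). In all, 10 of the 13 passed the test as higher and 2 as lower in MS than in MG at DM3, beside 23.4% and 20.8% of all tested genes. In GM, 1 (Ccl5) was higher and 1 (Clec2f) lower, beside 19.9% and 16%, or 2 and 3 with replicate number as a block, which added Ctla2a, Trim30a and Siglecg. The wider list of 206 tested immune and interferon-stimulated genes, of which 5 are in the set, was also counted. It had 117 higher and 32 lower in control on differentiation, 103 and 28 in MS, and 69 and 34 in MG. Of all tested genes, 29.6% were higher and 28.6% lower in control, 17.2% and 18.4% in MS, and 26.3% and 25.1% in MG.

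Replicate 2 of control GM bears on these genes. Of the 13, 8 were highest in that library among the 3 of control GM, at a median of 1.71 times the mean of the other 2 and up to 8.46 times (Irf7 4.27, 28.3 and 3.40 FPM, Zbp1 1.62, 13.5 and 1.67 FPM). Of the other 67 genes, 32 were highest in it, at a median ratio of 1.06. Irf7 and Zbp1 were also highest in replicate 2 of MS GM (0.480, 4.11 and 1.57 and 0.252, 4.12 and 0.289 FPM). Without control GM replicate 2 the rule found 66 genes, of which 65 were among the 80. Of the 15 lost, 3 were interferon-stimulated, Irf7, Zbp1 and Phf11d, and the other 12 were Usp11, Ndst4, Ero1l, Plekhb1, Dock11, Chrnd, Kif5a, Tmem158, Ampd3, Mtm1, Ptgs1 and Gng8. The rise in control cells from GM to DM3 did not rest on it, since 11 of the 13 also rose without it, and none fell.

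**Figure D4:**
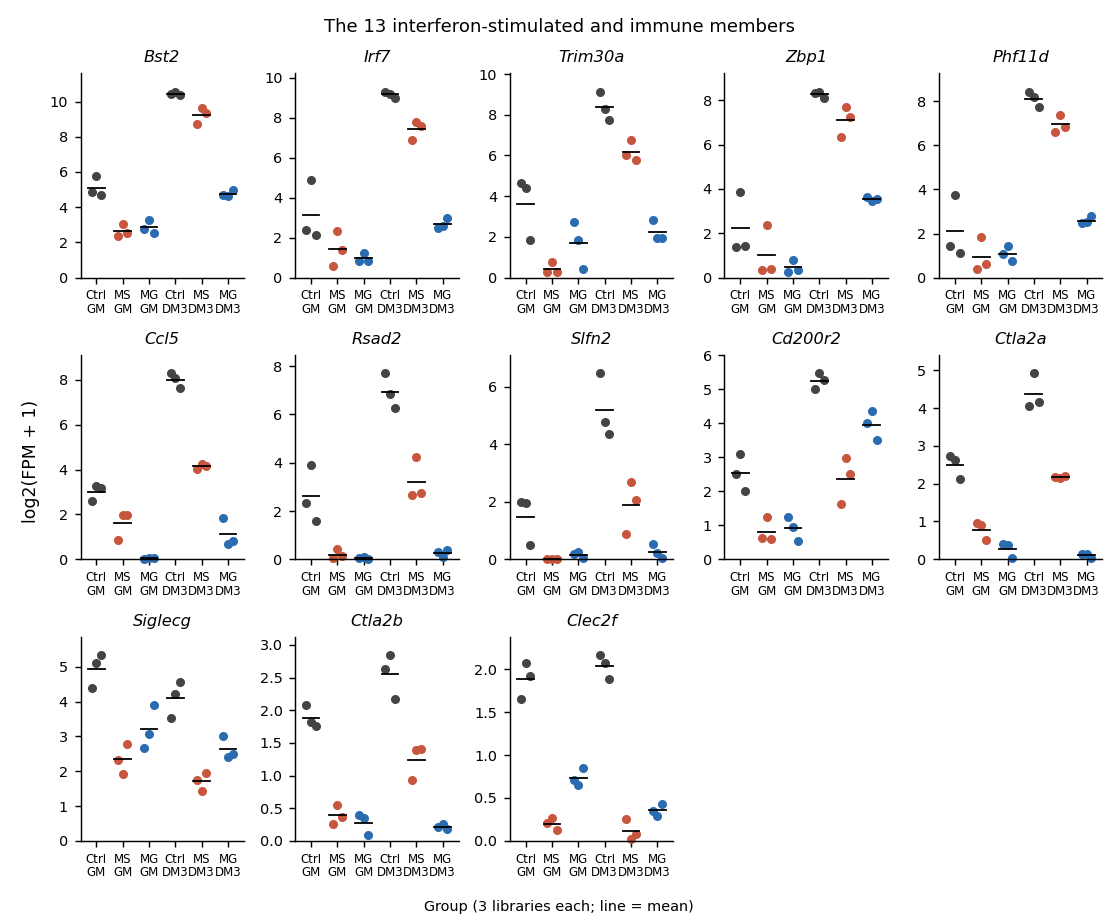
Level of the 13 interferon-stimulated and immune genes. Each point is a library on the log2(FPM + 1) scale, with control in grey, MS in red and MG in blue, and each line is the mean of 3 libraries. In DM3 the MS libraries lie between control and MG for 10 of the 13 genes, and below MG for Cd200r2, Siglecg and Clec2f.

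The 2 MUNC lines were next compared with each other, which the rule did not do. In GM they differed in 28 of the 80 genes (14 higher and 14 lower in MS than in MG), beside 35.8% of all tested genes, 19.9% higher and 16% lower. In DM3 they differed in 38 (23 higher and 15 lower), beside 44.2% of all tested genes, 23.4% higher and 20.8% lower. With replicate number as a block, which pairs the libraries in GM, 36 genes of the set differed there (19 higher and 17 lower), beside 6518 of all tested genes. The share of the set without the block was 35% in GM and 47.5% in DM3, near the background in both. Without the interferon-stimulated and immune genes it was 26 of 67 in each medium. The rule chose genes that are low in both lines, so nothing is read from these shares beside the background.

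L1cam, Gpr149 and Ppef1 were lower in MS than in MG in both media. L1cam differed by -3.20 ± 0.24 (SE), limma adjusted p = 2.81e-08 in GM and by -2.76 ± 0.24 (SE), limma adjusted p = 1.14e-07 in DM3, where it was at 0.911, 0.174 and 0.344 FPM in MS and 7.78, 9.23 and 9.46 FPM in MG. Gpr149 differed by -2.88 ± 0.28 (SE), limma adjusted p = 5.39e-07 in GM and by -2.49 ± 0.28 (SE), limma adjusted p = 1.93e-06 in DM3. Ppef1, which encodes a protein phosphatase that binds calcium, was at 0.126, 0.697 and 0.307 FPM in MS GM and 9.03, 9.67 and 5.59 FPM in MG GM (-2.71 ± 0.28 (SE), limma adjusted p = 1.34e-06), and differed by -1.82 ± 0.28 (SE), limma adjusted p = 6.62e-05 in DM3. For all 3 genes no MS library reached an MG library in either medium, as for 20.6% of all tested genes in GM.

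In the other direction, Mtm1 was at 5.83, 6.73 and 4.2 FPM in MS GM and 0.0573, 0.0169 and 0 FPM in MG GM, 5 reads or fewer in each MG library (2.67 ± 0.28 (SE), limma adjusted p = 1.81e-06). In DM3 it was at 11.2, 8.0 and 12 FPM in MS and 0.0989, 0.0452 and 0.0390 FPM in MG (3.41 ± 0.28 (SE), limma adjusted p = 6.26e-08). Ndst4 was at 10.2, 12 and 8.44 FPM in MS GM and 1.17, 1.60 and 0.399 FPM in MG GM (2.48 ± 0.34 (SE), limma adjusted p = 3.19e-05), and Dock11 at 32.4, 46.9 and 33.6 and 11.8, 13.9 and 10.2 FPM (1.57 ± 0.17 (SE), limma adjusted p = 2.55e-06). In DM3 Ndst4 differed by 1.77 and Dock11 by 2.08. On chromosome 5, Abcb1b differed between the lines by -0.61 ± 0.18 (SE), limma adjusted p = 0.013 in GM and by 0.51 ± 0.18 (SE), limma adjusted p = 0.0264 in DM3. The first call was lost without MS GM replicate 2 or MG GM replicate 3 (0.0761 and 0.0719), and the second without MS DM3 replicate 1 or 3 or MG DM3 replicate 1 or 2 (0.0616 to 0.123).

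**Figure D5:**
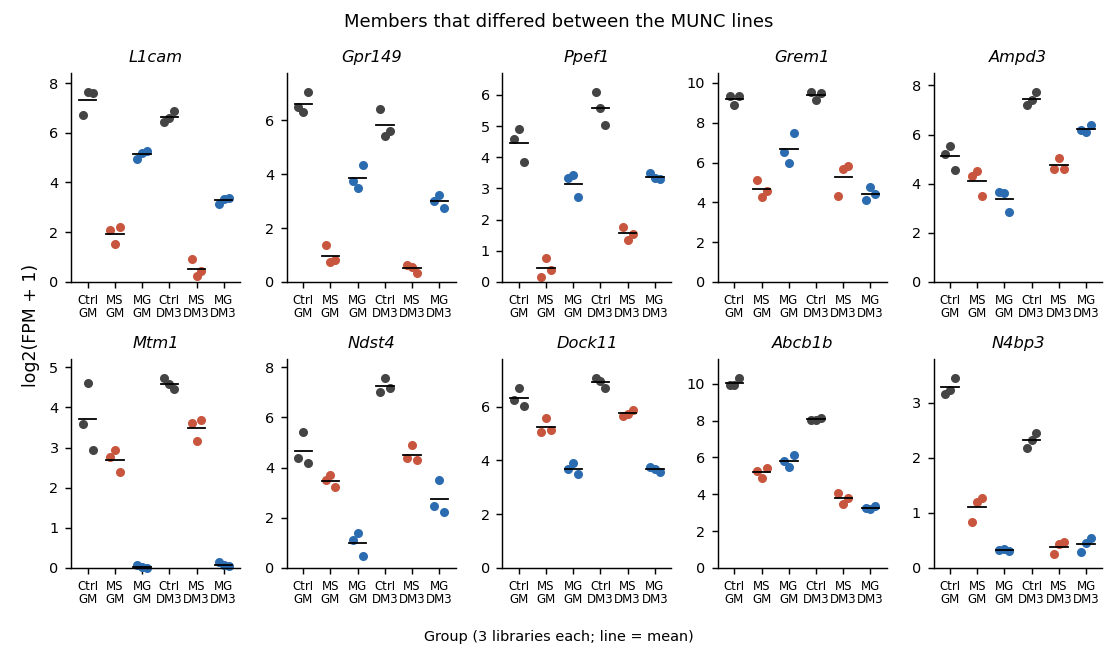
Level of 10 genes that differed between the MUNC lines or in their response to differentiation. Each point is a library on the log2(FPM + 1) scale, with control in grey, MS in red and MG in blue, and each line is the mean of 3 libraries. MS lies below MG in both media for L1cam, Gpr149 and Ppef1, and MG lies below MS in both media for Mtm1, Ndst4 and Dock11.

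The response to differentiation itself differed between the MUNC lines for 13 of the 80 genes, 11 with a larger rise (or smaller fall) in MS and 2 with a larger one in MG, beside 10.5% of all tested genes, 5.36% and 5.17% in the 2 directions. Of the 13, 9 were interferon-stimulated or immune genes (all higher in MS; 6 to 9 higher and 0 to 1 lower over the alternatives tried, the lower one being Cd200r2), and 4 of the other 67 genes passed. Trim30a differed most, by 5.20 ± 0.89 (SE), limma adjusted p = 0.00151. Grem1 fell in MG from 90.8, 61.2 and 181 to 16.2, 26.3 and 20.4 FPM (-2.23 ± 0.38 (SE), limma adjusted p = 0.000151) and did not pass the test in MS (0.62 ± 0.38 (SE), limma adjusted p = 0.216), and the difference of the responses was 2.85 ± 0.54 (SE), limma adjusted p = 0.0029. Ampd3, an AMP deaminase gene, was at 19.0, 21.7 and 10.2 FPM in MS GM and 23, 32.2 and 23.1 FPM in MS DM3 (0.64 ± 0.28 (SE), limma adjusted p = 0.088), and rose in MG from 11.6, 11.3 and 6.24 to 70.9, 67.4 and 83.7 FPM (2.85 ± 0.28 (SE), limma adjusted p = 1.51e-06). The difference of its responses was -2.21 ± 0.40 (SE), limma adjusted p = 0.00215. N4bp3 fell in MS (-0.72 ± 0.13 (SE), limma adjusted p = 0.000548), while in MG it was at 0.449 FPM or less in both media (0.10 ± 0.13 (SE), limma adjusted p = 0.539), with a difference of -0.82 ± 0.18 (SE), limma adjusted p = 0.00896. Ccl5 was the least settled of the 13. Its difference was 1.46 ± 0.44 (SE), limma adjusted p = 0.0435, but it had 1 or 2 reads in each MG library in GM, and with edgeR on the recovered reads the difference was -2.50 (adjusted p = 0.199), in the other direction.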

How the data were processed

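Poly(A) RNA of 18 libraries in 6 groups of 3, set by the sample titles (which the source names of 9 samples contradict), was measured by sequencing, and the series' design text calls the replicates biological. The deposited table gives a normalized signal, called FPM here, for 35275 Ensembl genes. The submitters' processing notes name STAR, HTSeq, DESeq2 and mm10, with no role or version. In each library 100% of the values were within 0.05 reads of a whole multiple of a fixed amount, so the authors' signal was read counts over a size factor, and those counts were recovered. Whether counting used strand is not given in the sources used here. A further deposited table held the authors' log2 fold changes and adjusted p-values for control cells, and its calls were only counted. Its other score columns, the mean normalized count and the test statistic per the file headers, were not used.

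The log2(FPM + 1) values of 13869 genes (0.5 FPM or more in 3 libraries; pseudocount 1) were tested with limma 3.58.1 (R 4.3.3), in a single fit of all libraries with a trend and 12 residual degrees of freedom. Adjustment was by Benjamini-Hochberg over all tested genes. The scale understates changes of genes near 0. The 6 comparisons tested were DM3 against GM in each line, MS against MG in each medium, and the difference of the MS and MG responses. They use the libraries of the rule, but not its contrasts. Alternatives included edgeR 4.0.16 and DESeq2 1.42.0 on the recovered reads, other pseudocounts, filters and scalings, a replicate block, and each library left out. The fits were tested on simulated data. Positions came from GENCODE M21 (GRCm38), which held 34490 of the identifiers (97.8%), and promoters from RefSeq.

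The genes and the lists were chosen with earlier results of these data known. Genes were named where their smallest drop was among the 12 largest, where they were among the 3 strongest calls in a direction of a comparison, where they were the most expressed of a family list, or where they lay next to the threshold. Others were named to account for each role group, after their values had been seen. Same-numbered libraries deviated together (correlations over 0.1 in all 3 pairs) in control DM3 against GM (0.411, 0.203 and 0.230) and in MS against MG in GM (0.456, 0.699 and 0.727), so the numbers pair the samples there, by the labels' replicate numbers and these correlations.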

Additional observations from a re-analysis of the deposited data

Results flagged for a closer look

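The response to differentiation differed between the MUNC lines for 13 genes, by limma's test of the difference itself (MS response minus MG response, log2(FPM + 1) scale). The response was larger in MS for Trim30a by 5.20, for Bst2 by 4.70, for Phf11d by 4.51, for Irf7 by 4.30, for Zbp1 by 3.00, for Rsad2 by 2.80, for Ctla2a by 1.56, for Ccl5 by 1.46 and for Ctla2b by 0.91, all of them interferon-stimulated or immune genes. Grem1 differed by 2.85, since it fell in MG. Abcb1b differed by 1.12, since its fall was smaller in MS. In the other direction Ampd3 differed by -2.21 and N4bp3 by -0.82.

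Of these, Ccl5, Zbp1, Rsad2 and Ctla2b did not pass under some alternatives. Zbp1 did not pass with edgeR (adjusted p = 0.453) or DESeq2 (adjusted p = 0.453), with a pseudocount of 0.1 or 0.5 or with no filter on low values (limma adjusted p = 0.157, 0.0618 and 0.0661), or without any of 5 single libraries (limma adjusted p = 0.0567 to 0.0645). Ctla2b did not pass without MG GM replicate 1 or MG DM3 replicate 3 (limma adjusted p = 0.0578 and 0.0511). Rsad2 did not pass with edgeR (adjusted p = 0.444) or DESeq2 (adjusted p = 0.0997). Ccl5 did not pass with a pseudocount of 0.5, with no filter or with only the groups compared (limma adjusted p = 0.178, 0.0970 and 0.0699), or without any of 9 single libraries (limma adjusted p = 0.0567 to 0.114), and it changed sign under the settings given in the next part.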

How the results depend on the processing

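The rule found 156 genes with a pseudocount of 0.1, all 80 among them, 34 with a drop of 1.5 or more, and 66 to 90 when single libraries were left out. With the libraries scaled to equal sums it found 68, all of them among the 80, so the scaling decides part of the membership. Requiring an absolute log2 change of at least 1 left 30 genes of the set and 2592 of all genes called in control, 22 and 2052 in MG, 15 and 1264 between the lines in GM, 1253 of all genes in MS, 1830 between the lines in DM3, and 686 for the difference of responses, since it adds a criterion. With only the groups compared in the fit, 3046 of all genes were called in MS. With each library left out in turn, 50 to 57 genes of the set were called in control, 25 to 37 in MS, 34 to 41 in MG, 21 to 28 between the lines in GM, 32 to 34 in DM3 and 11 to 14 for the difference of responses. Over all genes that last comparison gave 930 (without MG DM3 replicate 3) to 1597 calls (without MG GM replicate 2), against 1460 with all libraries. Without the interferon-stimulated and immune genes, a setting chosen after seeing the data, 4 genes of the set were called there.

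With replicate number as a block, 2716 of all genes were called for the difference of responses. In the set the block added 17 calls over the 6 comparisons and lost none, and it moved no count of calls of the set by more than 1.5 times. In 3 other comparisons not every pair of same-numbered libraries had a correlation over 0.1. In MG DM3 against GM and in MS against MG in DM3, each same-numbered pair still correlated more than any pair with different numbers. In MS DM3 against GM replicate 3 did not. Whether the numbers pair the samples in these comparisons is thus not settled, and the main tests did not use them. The pairing was not checked for the difference of responses, where the block added Car8, Thbs2 and Cd200r2. The difference of the responses of Ccl5 became -0.15 with a pseudocount of 0.1, -2.50 with edgeR and -2.60 with DESeq2, with 1 or 2 reads in each MG library in GM. Of 8160 single-gene values (480 results under their alternatives), 7409 kept their direction and side of the threshold, 324 lost a call, 166 gained one, 258 changed sign with no call in either setting, and 3, those of Ccl5, reversed from a call. Levels of a few reads are limited by depth, and 3 replicates a group limit all tests.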
